A study of Sus scrofa with 4 samples.

Results

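Solute carriers were examined as a group in porcine intramuscular adipocytes. Solute carriers are the membrane proteins that move amino acids, sugars, fatty acids, ions, vitamins and metals across the cell surface and the membranes of organelles. They are numbered by family, and members of a family share descent but can carry different substrates. In fat cells they admit glucose and fatty acids, export lactate, set ion gradients and clear monoamines such as serotonin. Gene names on the array made of SLC, a family number, the letter A and a member number were collected, which gave 142 names. Of the 8 genes left out by the rule, which are glucose, serotonin, cystine, zinc and iron carriers, 4 were among them, so 138 genes of 34853 gene names were kept. They fell into 38 families and had 260 probes, and 68 genes had more than 1 probe. Of the 138, 95 were well above background on all 4 arrays, 16 on some and 27 on none. The last group was 19.6% of the carriers, against 35.97% of all gene names.

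Porcine intramuscular preadipocytes (PIP) are a cell line from the longissimus thoracis muscle of a Duroc pig, used at passages 26 to 35 and grown in medium with 10% serum. Mature adipocytes (pMA) were PIP cells kept for 4 days in differentiation medium with 50 ng/ml insulin, 0.25 μM dexamethasone, 2 mM octanoate and 200 μM oleate. Stimulated pMA had the same differentiation and then were exposed for 12 h to serotonin (100 μM, written as per ml in the labels) or to TNF-α at 2.5 µg/ml. Each condition was 1 array made from pooled RNA, all from 1 cell line, so no ratio has a replicate check and no test was made. Less RNA per cell and fewer cells that express a gene cannot be told apart.

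The 4 arrays lay on 1 slide. The 75th percentile of intensity was 479 to 566, and 56.5% to 66.0% of probes were well above background, with the highest share after TNF-α. Repeated spots gave a standard deviation of 0.12 to 0.14 for a log2 ratio, which covers spot noise only. Of 10 adipocyte markers on the array, 5 rose at least 2-fold in pMA, among them CD36 (log2 ratio 5.17), the fatty acid receptor, and PLIN2 (3.13), the lipid droplet protein. PLIN1 and ADIPOQ, which mark mature fat cells, were not well above background in pMA. Of 6 muscle markers on the array, 4 (MYOG, PAX7, DES and CKM) were well above background on all 4 arrays, and MYOD1 and MYF5 on none. Of 5 endothelial markers PECAM1 and KDR were well above background on all arrays, VWF on some, and CDH5 and TEK on none.

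After serotonin the adipocyte markers moved in both directions, with FABP4 at -2.77, LPL at 2.41 and CD36 at 1.47. Of 5 preadipocyte and fibroblast markers with a ratio, COL1A1 (-1.41) passed 2-fold. COL1A2 (-0.91), THY1 (-0.88) and VIM (-0.34) were also lower, and PDGFRB had 0.27. Of 4 muscle markers DES (-1.02) passed it, while CKM had -0.76, PAX7 0.39 and MYOG -0.01. Of 3 endothelial markers PECAM1 (-1.46) passed it, KDR had -0.76 and VWF had a bound of -0.79. The mean log2 level of the fibroblast list was 3.19 in pMA and 2.58 after serotonin. That of the muscle list was -1.41 and -1.92, and that of the endothelial list -3.84 and -4.83. Dim genes without a serotonin ratio also entered these means: DLK1, MYOD1, MYF5, CDH5 and TEK. All had lower values after serotonin, such as MYOD1 (-6.23 and -7.34) and TEK (-5.67 and -7.13). The lowest signal that cleared the background was -4.64 in pMA and -5.12 after serotonin. The gaps between the means therefore include background signal and cannot be read as marker changes alone. The part of these cell types in the serotonin ratios given below was not tested.

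Levels are log2 intensities with the 75th percentile of each array set to 0. A level is compared only between arrays for the same probe, since probes differ in brightness. A gene was read from its brightest probe, and a ratio is a difference of levels. The cutoff was 2-fold (a log2 ratio of 1), the fold criterion of the study. The study also required a t-test p-value, which 1 array per condition cannot give. A probe that cleared the background on a single array of a pair gives a lower bound, which is written as "at least". Probe sequences are given for carriers the results turn on, so that a reader can see which bases each value was read from.

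For differentiation, pMA were compared with PIP. The sodium-coupled sugar carrier SLC5A10, the potassium-chloride carrier SLC12A5, the vesicular amino acid carrier SLC6A17 and the fatty acid carrier SLC27A1 were higher in pMA, but most solute carriers differed little. Of 103 with a ratio, 7 were at least 2-fold higher and 1 was at least 2-fold lower, which is 7.77%, against 13.5% of all gene names and 12.3% of gene symbols. Of all gene names 9.92% were higher and 3.56% lower. When arrays were scaled to their spike-in controls instead, which moved every ratio upward, the shares were 26.5% of the carriers and 25.8% of all gene names, so the smaller share of carriers was not kept. The median log2 ratio was 0.15 for the carriers and 0.11 for all gene names. Of 96 carriers measured on both arrays, 66 differed by less than 0.5 on the log2 scale and 24 by 0.5 to 1.

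SLC5A10 (SGLT5), a sodium-coupled carrier for mannose and fructose known from kidney, had the largest rise among the carriers measured on both arrays. Its log2 level was -2.37 in PIP, 0.35 in pMA, 0.49 after serotonin and -0.11 after TNF-α, from an intensity of 99.5 in PIP and 611 in pMA. PIP stood apart from the 3 arrays of pMA. The log2 ratio was 2.72, a 6.61-fold rise. The other probe of the gene gave 0.30, so the rise was carried by 1 probe. These are the probes, of 60 bases each:
SLC5A10, brightest probe: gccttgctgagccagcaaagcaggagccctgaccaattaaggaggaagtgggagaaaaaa
SLC5A10, other probe: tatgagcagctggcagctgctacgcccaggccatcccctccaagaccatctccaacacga

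SLC12A5 (KCC2) exports chloride together with potassium and is best known from neurons. Its log2 level rose from -3.58 in PIP to -1.57 in pMA and was -1.95 after serotonin and -1.97 after TNF-α. PIP was again the low array. The log2 ratio was 2.01, a 4.03-fold rise. A second probe was not well above background in PIP or pMA and gave no ratio. The probe read was:
SLC12A5, brightest probe: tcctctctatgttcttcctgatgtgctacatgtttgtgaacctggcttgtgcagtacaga

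SLC6A17, which loads neutral amino acids into vesicles of neurons, had log2 levels of -4.65 in PIP, -3.16 in pMA, -3.42 after serotonin and -3.39 after TNF-α. It was faint, at an intensity of 20.5 in PIP and 53.6 in pMA, and its ratio was 1.49. SLC27A1 (FATP1), the fatty acid transport protein of muscle and fat, had levels of -2.34 in PIP, -0.87 in pMA, -1.07 after serotonin and -0.99 after TNF-α. In both genes PIP was lower than each of the 3 pMA arrays. SLC27A1 rose 2.77-fold (log2 ratio 1.47), and a second probe gave 1.37. No other gene measured past 2-fold in differentiation had a second probe past it. Its probe was:
SLC27A1, brightest probe: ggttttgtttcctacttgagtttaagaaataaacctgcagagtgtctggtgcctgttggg

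SLC10A7, a relative of the bile acid carriers, was -1.71 in PIP, -0.57 in pMA, -0.64 after serotonin and -0.69 after TNF-α. Its ratio was 1.14, while another probe of the gene was lower in pMA, by a bound of -0.54. The plasma membrane monoamine transporter SLC29A4 (PMAT), which carries serotonin, was not well above background in PIP, at a level of -6.28. It was measured at -3.80 in pMA, -4.49 after serotonin and -3.93 after TNF-α. It was at least 2.52-fold higher in pMA than in PIP. SLC17A4, a carrier of phosphate and organic anions known from intestine, was dim in PIP and gained at least 2.34-fold in pMA.

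SLC44A4, a choline transporter-like protein, was the carrier lower in pMA. Its log2 level was 0.91 in PIP, -0.10 in pMA, -0.34 after serotonin and -0.15 after TNF-α. PIP was the high array, and the ratio was -1.01. A second probe, which shares 48 bases with the probe read, gave -0.09. It was faint, at -4.54 in PIP and -4.63 in pMA. The lowest signal that cleared the background in pMA was -4.64, so this probe could show little of a fall. The shared bases are in capitals:
SLC44A4, brightest probe: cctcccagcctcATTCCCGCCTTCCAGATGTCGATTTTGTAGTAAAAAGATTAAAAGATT
SLC44A4, other probe: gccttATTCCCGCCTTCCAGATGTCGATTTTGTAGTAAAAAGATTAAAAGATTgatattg

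Just inside the cutoff stood SLC44A4, and just outside it the monocarboxylate family member SLC16A8 (1.998-fold higher) and the intestinal glucose carrier SLC5A1 (1.98-fold lower). Of the 8 carriers past the cutoff, SLC5A10 and SLC12A5 stayed past it in every processing setting with a value. The normexp background setting subtracts the surroundings of each spot, fits a background model to all spots and adds an offset of 50. With it 3 of the 8 remained past 2-fold, and the log2 ratio of SLC6A17 was 0.52. Median scaling left SLC10A7, SLC17A4 and SLC29A4 under it, and the mean of probes left SLC27A1 (0.94) and SLC44A4 (-0.26) under it. Quantile normalization left SLC17A4, SLC29A4 and SLC44A4 under it. SLC44A4 was also under it with spike-in scaling, normexp background and the series value table.

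**Figure D1:**
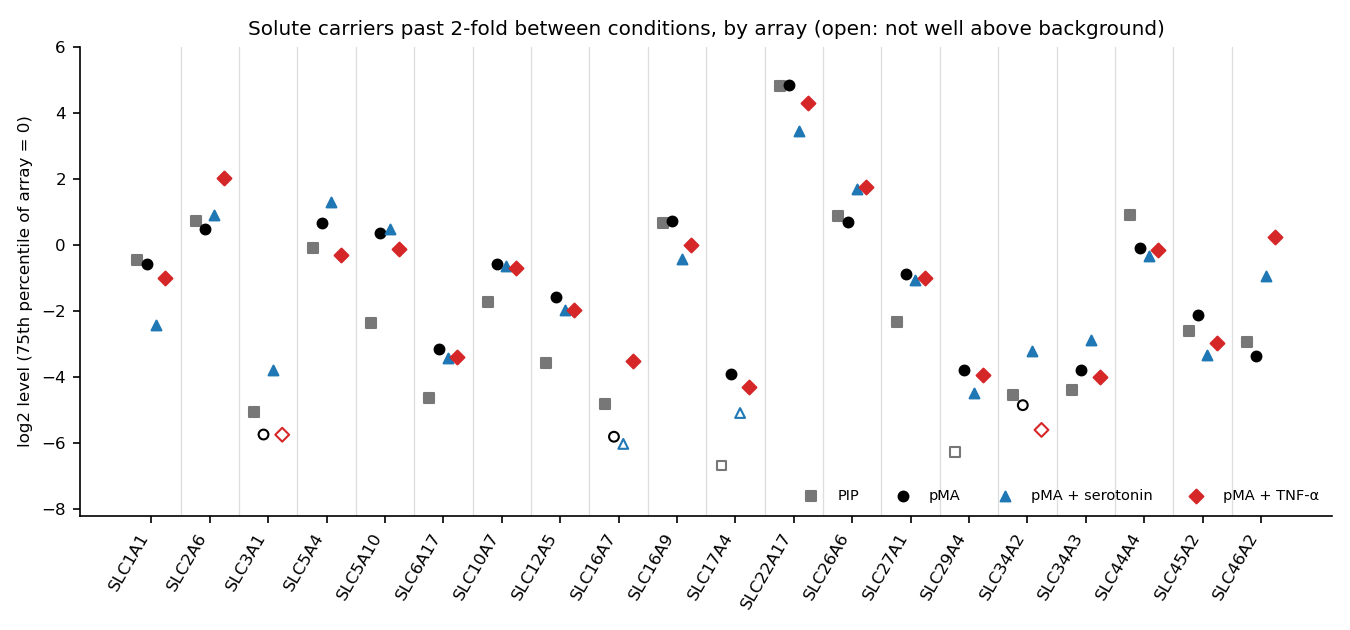
Log2 levels of the 20 solute carriers past 2-fold in at least 1 comparison (x axis: gene; y axis: log2 level with the 75th percentile of the array at 0), with 1 point for each of the 4 arrays and no error bars because each condition is 1 array. Open points were not well above background. SLC5A10 and SLC12A5 are low on the PIP array alone (-2.37 and -3.58), SLC1A1 is lowest after serotonin (-2.41), and SLC46A2 is highest after TNF-α (0.23).

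Transport classes, formed from family numbers, were described relative to the median of all gene names in the same comparison, because that difference did not depend on a constant shift of an array. In differentiation, ion and pH carriers (24 genes, 12 measured) had 9 above that median and 3 below. Their median lay 0.31 above it. The sodium-proton exchangers SLC9A3 (0.30) and SLC9A4 (0.69) and the potassium-chloride carrier SLC12A4 (0.72) were among them.

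The sodium-coupled sugar family SLC5 had 5 of 7 genes measured, of which 4 lay above the median of all gene names and SLC5A1 lay below. SLC5A4, of the same family, had a log2 ratio of 0.74, and the iodide carrier SLC5A5 had 0.88. Of 5 measured monocarboxylate carriers 4 lay above that median, and SLC16A13 had a ratio of 0.92. For SLC16A1 (MCT1), the main lactate carrier of many tissues, it was 0.14. Its chaperone BSG had a ratio of 0.02.

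Amino acid carriers (16 genes, 11 measured) had 4 above and 7 below the median of all gene names, and none past 2-fold except SLC38A3 with spike-in scaling and SLC7A10 with no filter on dim probes. SLC3A2, the heavy chain that brings several amino acid exchangers to the surface, had log2 levels of 4.26 in PIP, 3.63 in pMA, 3.29 after serotonin and 3.51 after TNF-α. Its ratio in differentiation was -0.63, with a second probe at 0.23. SLC7A7, a light chain that pairs with it, had a ratio of 0.48 and 4 of 4 probes in that direction, from 0.40 to 0.83. SLC7A1 (CAT1), the arginine and lysine carrier, had -0.17, and SLC38A3, a glutamine carrier, had 0.86.

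Mitochondrial carriers of the SLC25 family (17 genes, 15 measured) had 7 above and 8 below the median of all gene names, and none reached 2-fold in differentiation or after either stimulation, other than SLC25A39 with spike-in scaling and the dim SLC25A31 with no filter. SLC25A3, which imports phosphate for ATP synthesis, had 10 probes, all below the median of all gene names, from -0.38 to -0.05. The ADP/ATP carrier SLC25A6 had 6 probes from -0.33 to 0.20. SLC25A37 (mitoferrin-1), which imports iron, had a ratio of 0.52 with 3 of 6 probes in that direction. SLC25A39 had 0.80, but the transcript accession of its probe matched another gene, VSIR, in the RefSeq table of Sscrofa11.1, so its identity is uncertain.

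Zinc, iron and other metal carriers (17 genes, 15 measured) included none past 2-fold in differentiation or after either stimulation, but with spike-in scaling 5 were higher in pMA and with median scaling SLC30A6 was lower. They had 9 above and 6 below the median of all gene names. SLC30A9 had the highest measured ratio, 0.94, with its second probe at -0.16. SLC30A6 had the lowest, -0.68, with its second probe at -0.27. Fatty acid transport proteins had 4 measured genes, of which SLC27A1 alone passed 2-fold. SLC27A2 (-0.01), SLC27A3 (0.29) and SLC27A4 (0.09) did not.

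Glucose and hexose carriers in classes other than SLC5 (8 genes, 7 measured) ranged from -0.26 to 0.56. SLC2A8 (GLUT8), an intracellular glucose carrier, had 0.14. SLC37A4, which takes glucose 6-phosphate into the endoplasmic reticulum, had levels of 7.23 in PIP, 7.56 in pMA, 7.46 after serotonin and 7.54 after TNF-α. These differ by 0.33 at most. SLC2A2 (GLUT2), the liver and islet carrier, was not well above background on any array.

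**Figure D2:**
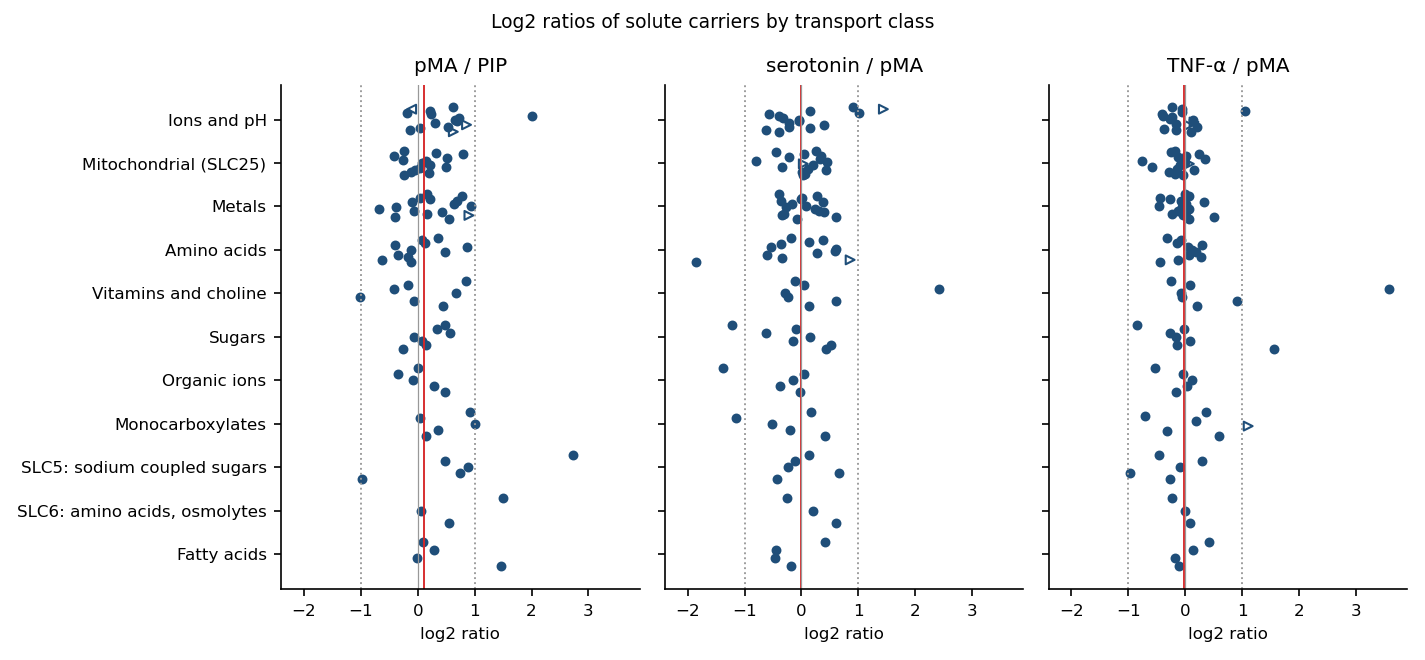
Log2 ratios of the solute carriers in the transport classes with 4 or more genes (y axis), for pMA over PIP, serotonin over pMA and TNF-α over pMA (x axes). Each point is a gene, open triangles are lower bounds, dotted lines mark 2-fold, the red line is the median of all gene names and the grey line is 0. With the 75th percentile scaling plotted here, the mitochondrial and metal carriers stay inside the dotted lines in all 3 panels, and SLC46A2 stands at 2.41 after serotonin and 3.58 after TNF-α among the vitamin and choline carriers.

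Serotonin-stimulated pMA were then compared with unstimulated pMA. The glutamate carrier SLC1A1, the lipocalin receptor SLC22A17 and the melanosome carrier SLC45A2 were lower, and SLC46A2 and the anion exchanger SLC26A6 were higher. Of 105 carriers with a ratio, 3 were at least 2-fold higher and 5 lower, which is 7.62%, against 6.82% of all gene names (2.08% higher and 4.74% lower) and 7.25% of gene symbols. The median was -0.04 for the carriers and -0.01 for all gene names. The share was near that of genes in general.

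SLC1A1 (EAAT3) takes up glutamate, aspartate and cysteine with sodium. Its log2 level was -0.44 in PIP, -0.57 in pMA, -2.41 after serotonin and -1.01 after TNF-α, and the serotonin array was the low one of the 4. It fell by 1.85 on the log2 scale, or 3.60-fold. All 4 probes of the gene were lower after serotonin, from -1.85 to -1.24, and none of them share a run of 20 or more bases with the probe read. Their sequences were:
SLC1A1, brightest probe (log2 ratio -1.85): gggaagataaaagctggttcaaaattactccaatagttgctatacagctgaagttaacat
SLC1A1, another probe (-1.51): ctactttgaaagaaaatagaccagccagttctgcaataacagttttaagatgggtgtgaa
SLC1A1, another probe (-1.49): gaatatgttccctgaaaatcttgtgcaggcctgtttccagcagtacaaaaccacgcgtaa
SLC1A1, another probe (-1.24): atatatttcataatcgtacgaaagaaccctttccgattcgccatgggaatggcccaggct

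SLC22A17, the receptor for lipocalin-2, had log2 levels of 4.83 in PIP, 4.84 in pMA, 3.45 after serotonin and 4.31 after TNF-α. Serotonin gave the lowest level of the 4. The ratio was -1.39, and the other probes gave -0.76 and -0.68. SLC45A2, a proton-coupled sugar carrier of melanosomes, had -2.59 in PIP, -2.12 in pMA, -3.34 after serotonin and -2.97 after TNF-α, and its ratio was -1.22. SLC16A9, a carnitine and creatine carrier of the monocarboxylate family, had 0.68, 0.72, -0.43 and 0.01 in the same order and a ratio of -1.15. Only the brightest of its 3 probes fell, and the others gave 0.06 and 0.12.

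SLC17A4 was measured in pMA at -3.90 and was not well above background after serotonin. It was at least 2.28-fold lower. SLC46A2, the thymic stromal cotransporter, had a ratio of 2.41 and is described with TNF-α. SLC26A6, which exchanges chloride for oxalate and bicarbonate, had levels of 0.89 in PIP, 0.70 in pMA, 1.71 after serotonin and 1.76 after TNF-α. Both stimulated arrays lay above both others. The serotonin ratio was 1.01, at the cutoff, with the second probe at 0.91.

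Among phosphate carriers, SLC34A2 was not well above background in pMA (-4.85) or after TNF-α (-5.60), and was measured in PIP at -4.53 and after serotonin at -3.20. It was at least 2.71-fold higher after serotonin than in pMA, and a second probe was not well above background on either array. Its relative SLC34A3 had levels of -4.39, -3.77, -2.87 and -4.00 in PIP, pMA, serotonin and TNF-α, and a serotonin ratio of 0.90. For SLC3A1, the heavy chain of the cystine carrier of kidney, the level was -3.78 after serotonin, and pMA and TNF-α were not well above background. It was at least 1.81-fold higher after serotonin than in pMA. These 3 genes had their highest level on the serotonin array.

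Of the organic cation and monoamine carriers, SLC29A4 had a serotonin ratio of -0.70. The organic cation carrier SLC22A2 had -0.03 and SLC22A4 had -0.37. SLC22A3 (OCT3) was not well above background in PIP, pMA or after serotonin and was so after TNF-α, too faint for a bound against pMA. The vesicular monoamine carrier SLC18A1 was not well above background on any array.

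Amino acid carriers had 5 of 11 measured genes above the median of all gene names after serotonin and 6 below. Beside SLC1A1, the arginine carrier SLC7A1 had a ratio of -0.61 with a second probe at -0.62, and SLC3A2 had -0.34. SLC38A1 (0.61), a glutamine carrier, and SLC7A7 (0.58) lay above. Of 4 genes of the amino acid shortage response on the array, CHAC1, which breaks down glutathione, passed 2-fold with -1.58. DDIT3 (-0.83), SESN2 (-0.41) and the regulator ATF4 (-0.07) were also lower. Outside the solute carriers, the water channel AQP1 had a ratio of -2.66.

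Of the 15 measured mitochondrial carriers, 11 lay above the median of all gene names after serotonin and 4 below. SLC25A37, counted below, had -0.23 with its brightest probe, while all its other probes were higher after serotonin. SLC25A32, which carries folate into mitochondria, had levels of 1.65 in PIP, 1.80 in pMA, 1.00 after serotonin and 1.04 after TNF-α. The ratio was -0.80 after serotonin and -0.76 after TNF-α, each against the same pMA array, with second probes at -0.67 and -0.77. The iron carrier SLC11A2 (DMT1) had 0.61 after serotonin and a second probe, dim in pMA, was higher by at least 0.56 on that scale. SLC6A8, which imports creatine, had 0.61. SLC16A1 had 0.42, with 3 probes from 0.37 to 0.44.

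Of the 8 carriers past 2-fold after serotonin, SLC1A1 and SLC46A2 stayed past it in every processing setting. With normexp background 4 remained, since SLC17A4, SLC26A6, SLC34A2 and SLC45A2 dropped under it. With the mean of probes SLC16A9 (-0.33), SLC22A17 (-0.94) and SLC26A6 were also under it.

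TNF-α-stimulated pMA were compared with the same unstimulated array, so the chance values of that array enter both sets of ratios. SLC46A2, the glucose carrier family member SLC2A6, SLC26A6 and the lactate and pyruvate carrier SLC16A7 were higher, and no carrier was 2-fold lower. The 4 of 107 carriers with a ratio are 3.74%, against 3.55% of all gene names (2.21% higher and 1.34% lower) and 4.14% of gene symbols. The median was -0.07 for the carriers and -0.03 for all gene names. Of 102 measured carriers, 90 differed by less than 0.5 on the log2 scale.

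SLC46A2 belongs to the folate carrier family, was described in thymic stroma and can carry bacterial cell wall fragments. Its log2 level was -2.93 in PIP, -3.35 in pMA, -0.93 after serotonin and 0.23 after TNF-α, at intensities of 67.8, 47.01, 296 and 656. Both stimulated arrays lay above both others, and TNF-α above serotonin. The rise was 11.9-fold after TNF-α (log2 ratio 3.58) and 5.33-fold after serotonin. The second probe of the gene was much less changed, with 1.11 after TNF-α and 0.05 after serotonin. It was faint, at -4.61 in pMA and -4.56 after serotonin, and the lowest signal that cleared the background in pMA was -4.64. For serotonin, the rise therefore rested on the brightest probe. The probes were:
SLC46A2, brightest probe: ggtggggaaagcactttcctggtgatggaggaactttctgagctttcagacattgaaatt
SLC46A2, other probe: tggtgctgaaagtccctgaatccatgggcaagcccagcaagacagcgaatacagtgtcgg

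SLC2A6 (GLUT6) is an intracellular member of the glucose carrier family found in leukocytes and lysosomes. It had log2 levels of 0.74 in PIP, 0.48 in pMA, 0.91 after serotonin and 2.04 after TNF-α, and TNF-α was the high array. The rise was 2.96-fold (log2 ratio 1.57). Of 6 leukocyte markers listed, 2 were on the array, CD14 (0.66) and CD3E (-0.10), and neither passed 2-fold after TNF-α. CD3E was faint, at -4.63 in pMA. The part of leukocytes in the ratio of SLC2A6 was not tested. The only probe of the gene was:
SLC2A6: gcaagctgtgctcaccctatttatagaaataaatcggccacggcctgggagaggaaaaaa

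SLC26A6 had a ratio of 1.06 after TNF-α, with the second probe at 0.82. SLC16A7 (MCT2), the monocarboxylate carrier with high affinity for pyruvate, was measured in PIP at -4.81 and after TNF-α at -3.53 and was not well above background in pMA or after serotonin. TNF-α raised it at least 2.16-fold over pMA. The lowest ratio was that of SLC5A4, with levels of -0.09 in PIP, 0.65 in pMA, 1.31 after serotonin and -0.31 after TNF-α. It was -0.96, just outside the cutoff.

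SLC23A2 (SVCT2), which takes up vitamin C, had a TNF-α ratio of 0.91, with levels of -2.74, -2.81, -2.20 and -1.90 in PIP, pMA, serotonin and TNF-α. SLC16A1 had 0.60, with 3 probes from 0.27 to 0.60. The iron carrier SLC11A2 had 0.50. SLC45A2 had -0.84 and SLC16A9 -0.71, the latter with 3 of 3 probes lower.

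Ion and pH carriers had 4 of 14 measured genes above the median of all gene names after TNF-α and 10 below, and mitochondrial carriers had 5 of 15 above and 10 below. These counts use the brightest probe of each gene. For SLC25A37 that probe was lower after TNF-α, with levels of 7.22 in pMA and 7.09 after TNF-α. All its other probes were higher after TNF-α, such as 1 with 1.48 in pMA and 2.37 after TNF-α. Of the 4 carriers past 2-fold after TNF-α, SLC46A2 and SLC2A6 stayed past it in every processing setting. SLC26A6 was under it with normexp background, with median scaling and, at 0.94, with the mean of probes. SLC16A7 was under it with normexp background.

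A list of 62 transporters of general interest in fat cells had 31 members among the carriers. In differentiation 2 of the 26 with a ratio passed 2-fold, SLC27A1 and SLC29A4, both higher, against 13.5% of all gene names. After serotonin none of 26 did, against 6.82% of all gene names. After TNF-α 2 of 27 did, SLC2A6 and SLC16A7, against 3.55% of all gene names. Among members not yet given, the bicarbonate carrier SLC4A7 had ratios of 0.54 in differentiation, -0.23 after serotonin and 0.22 after TNF-α. Its relative SLC4A4 had 0.04, 0.16 and -0.37 in that order.

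The arginine carrier SLC7A2 had -0.35, 0.28 and 0.07, and the betaine carrier SLC6A12, which serves cell volume, had 0.06, 0.20 and less than 0.01 in size. For the folate carrier SLC19A1 the ratios were 0.45, 0.14 and 0.20, and for the magnesium carrier SLC41A1 they were 0.78, 0.27 and 0.07. The nucleoside carrier SLC29A1 had 0.17, -0.22 and 0.01, but its probes disagreed. The glutamate carrier SLC1A3 and the sodium-calcium exchanger SLC8A1 were not well above background on any array.

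**Figure D3:**
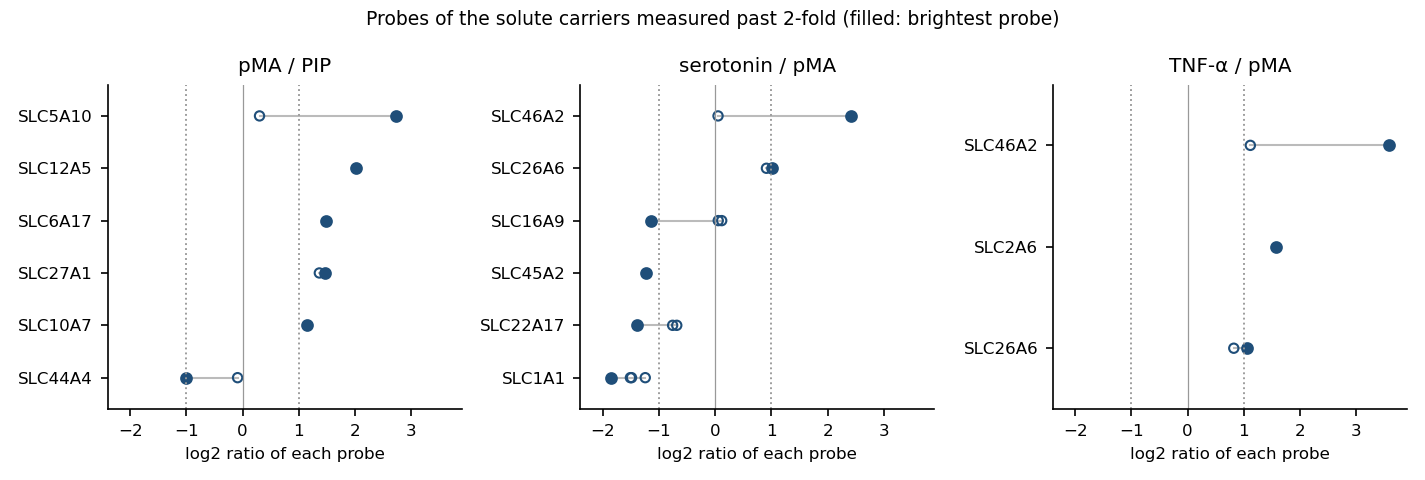
Log2 ratio of every probe measured on both arrays (x axis) for the solute carriers measured past 2-fold (y axis), in 3 panels for pMA over PIP, serotonin over pMA and TNF-α over pMA. The filled point is the brightest probe, open points are the other probes and dotted lines mark 2-fold. The 4 probes of SLC1A1 lie together from -1.85 to -1.24, whereas the probes of SLC46A2 lie at 2.41 and 0.05 after serotonin and those of SLC5A10 at 2.72 and 0.30. The second probe of SLC46A2 was close to background in pMA (level -4.61).

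Because both stimulations share the pMA array, the stimulated arrays were also compared directly, a comparison added after the values were seen. Of 110 carriers with a ratio, 8 differed at least 2-fold (7.27%), 4 higher and 4 lower with TNF-α than with serotonin. Of all gene names 6.9% did, 5.08% higher and 1.82% lower, and of gene symbols 8.34%. SLC1A1 was higher with TNF-α (log2 ratio 1.41, 4 probes from 0.85 to 1.41), as were SLC46A2 (1.16, second probe 1.06) and SLC2A6 (1.13). SLC16A7 was at least 3.03-fold higher with TNF-α. SLC5A4 had the largest measured difference in the other direction, -1.62, and SLC34A3 had -1.13.

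SLC34A2 was at least 4.15-fold and SLC3A1 at least 2.77-fold lower with TNF-α than with serotonin. A second probe of SLC34A2, dim after serotonin, was higher with TNF-α by a bound of 0.52. For SLC3A1 the other probe with a bound gave -1.47 as well, but it shares 56 bases with the probe read. SLC1A1, SLC2A6 and SLC5A4 stayed past 2-fold in every processing setting.

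Values side by side for the 20 carriers past 2-fold in any comparison showed 17 past it against PIP or pMA and 2, SLC46A2 and SLC26A6, past it after both stimulations, SLC26A6 not under every setting. Probes of a gene often disagreed. Of the 44 carriers with 2 or more probe ratios in differentiation, 23 had all probes in the same direction, and for serotonin and TNF-α these were 28 and 30 of 48. The median span between the probes of a gene on the log2 scale was 0.62 in differentiation, 0.21 for serotonin and 0.25 for TNF-α. Probes were more spread in differentiation than after either stimulation.

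**Figure D4:**
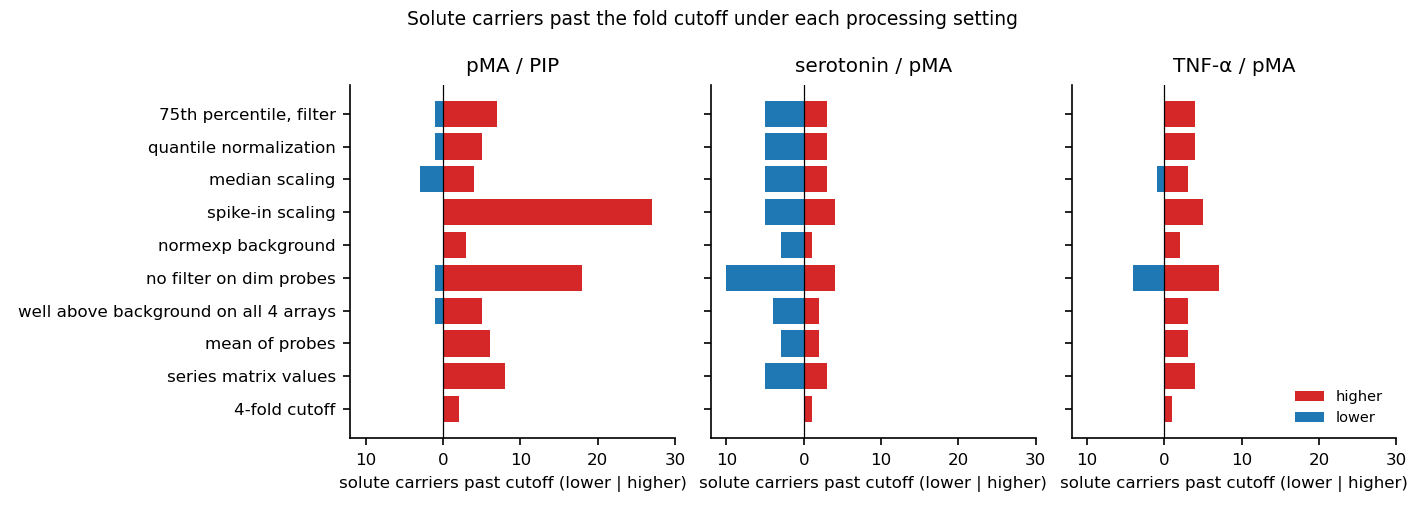
Number of solute carriers past the fold cutoff (x axis: lower to the left in blue, higher to the right in red) under each processing setting (y axis), for pMA over PIP, serotonin over pMA and TNF-α over pMA. The top bar is the setting reported here, with 7 higher and 1 lower in differentiation. Spike-in scaling raises the differentiation count to 27, all higher, and normexp background lowers it to 3.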

How the data were processed

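The deposited intensity values came from 4 one-color (Cy3) porcine Agilent arrays, 1 for each condition. The methods describe pooled RNA and also name a mouse array with GenePix and two-color labelling, which the files do not match. According to the submitters' processing notes, Agilent Feature Extraction 10.7.3.1 was used, and the authors deposited its background-subtracted, processed signals. The series value table is the same intensity multiplied by a constant per array and served as an alternative.

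Control spots, and outlier spots (1 to 12 per array), were left out. The log2 intensity of the deposited signals was taken after subtraction of the 75th percentile of each array, repeated spots were averaged, and a gene was read from its brightest probe (by mean over the arrays). Of 43603 probes, dim ones were raised to the lowest signal that cleared the background on their array before a lower bound was calculated. No test was made, since each condition has 1 array, and the number of arrays limits the precision. Python 3.11.15, numpy 2.4.6 and pandas 2.3.3 were used, with limma for normexp (offset 50). The ratio and bound calculation was tested on simulated data.

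Named carriers were those with a measured ratio of 2-fold or more (up to 12 in each direction), those with a lower bound of 2-fold or more (up to 8), and 31 of 62 listed transporters that were on the array. Others were named after their values were seen. The carriers, classes and lists were chosen with earlier results of these data known. Symbols were looked up in the RefSeq table of Sscrofa11.1, which listed all 138. The accession of the probe read was in it for 83, with the same symbol for 82. No coordinates are given because the array names no genome build. Some genes of the lists are not reported here.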

Additional observations from a re-analysis of the deposited data

How the results depend on the processing

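No paired analysis was possible because each condition has 1 array, and for the same reason no array could be left out. No carrier past 2-fold changed sign under any alternative run. The number of carriers past 2-fold in differentiation, 8, became 27 with spike-in scaling, 3 with normexp background and 19 with no filter on dim probes, and 2 passed 4-fold. These are 26.5%, 2.86%, 13.8% and 1.94% of the carriers with a ratio, against 25.8%, 4.44%, 20.5% and 1.84% of all gene names. After serotonin the 8 became 4 with normexp, 14 with no filter and 5 with the mean of probes, and 1 passed 4-fold. The shares were 3.81%, 10.1%, 4.76% and 0.95%, against 3.15%, 11.2%, 6.68% and 0.98% of all gene names. After TNF-α the 4 became 2 with normexp and 11 with no filter, and 1 passed 4-fold. The shares were 1.92%, 7.97% and 0.93%, against 1.41%, 9.28% and 0.51% of all gene names. Between TNF-α and serotonin the 8 became 3 with normexp, 19 with no filter and 5 when all 4 arrays had to be well above background, and 1 passed 4-fold. The shares were 2.70%, 13.8%, 5.26% and 0.91%, against 3.17%, 12.8%, 6.66% and 1.25% of all gene names. Of the carriers past 2-fold in differentiation 87.5% were higher, against 73.6% of all gene names past 2-fold. The share of the carriers was 57.1% (4 up, 3 down) with median scaling and 100% with spike-in scaling or with the series value table. After TNF-α it was 100%, against 62.3% of all gene names past 2-fold, and 75% (3 up, 1 down) with median scaling.

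The median log2 ratio of the carriers in differentiation, 0.15, was -0.20 with median scaling, 0.57 with spike-in scaling, 0.34 with no filter and 0.29 with the mean of probes. Scaling moved all genes together: their median was 0.11, and was -0.24 with median and 0.53 with spike-in scaling, so the carriers stayed 0.05 above it under these scalings. With no filter they were at 0.34 and all genes at 0.42, so this gap turned sign. After serotonin the median of the carriers was 0.084 with spike-in scaling in place of -0.04. Causes other than these shifts were not tested. Faint probes limit the ratios: 39 carriers in PIP and 36 in pMA were not well above background.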

Other observations

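Several genes with 1 probe past 2-fold were not read from that probe, since a brighter one represented the gene. In differentiation the second probe of SLC26A11, a sulfate carrier, had a log2 ratio of 1.88 against 0.21 for the probe read, and a probe of SLC16A9 had 1.18 against 0.04. In SLC25A44, a carrier of branched-chain amino acids into mitochondria, 4 probes ranged from -0.24 to 0.99. In SLC29A1, the nucleoside carrier ENT1, 4 measured probes ranged from -0.53 to 0.17 in differentiation, and another, dim in PIP, was higher by at least 0.80. After TNF-α 5 measured probes ranged from 0.01 to 1.11. The array holds 2 probe names with the same 60 bases for SLC44A4, and neither was well above background on any array.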
